A study of Mus musculus with 6 samples.

Results

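Cycling CD8 T cells were examined among TCRβ+ T cells sorted from subcutaneous tumors of B16-F10, a mouse melanoma line. A cell was taken as CD8-gated when it held at least 1 unique transcript count (UMI) of Cd8a or Cd8b1 and none of Cd4 or Foxp3. It was called cycling when UMIs of at least 2 of the 5 genes Mki67, Top2a, Cdk1, Birc5 and Ccna2 were present in it. This rule selected 437 of 4497 CD8-gated cells, among 12818 cells in all. The comparison population was the 3796 CD8-gated cells with none of the 5 genes, called non-cycling here, and the 264 cells with 1 of the genes were kept apart.

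All 6 samples came from Foxp3-EGFP-DTR mice aged 8 to 14 weeks. In these animals EGFP and the human diphtheria toxin receptor are expressed from the endogenous Foxp3 gene, so that diphtheria toxin (DTx) removes Foxp3+ Treg cells. By the labels, 3 samples had received PBS and 3 had received DTx, with injections on days 7, 9, 11 and 13 and tumor harvest on day 16 after implantation. Cells carried a library number from 1 to 6 that could not be tied to a labelled sample. PBS and DTx were therefore not compared, no value below belongs to a treatment, and libraries are not treated as replicates. Intervals are exact 95% intervals that cover counting error only, and no p-value was computed.

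Proliferation is how tumor-specific CD8 T cells, the cytotoxic arm of the T cell lineage, build up numbers after they meet antigen. During S phase a cell copies its DNA and makes histones, and during G2 and M it assembles a spindle, condenses its chromosomes and divides. The genes for these steps are switched on in waves. E2F factors act before S phase, and the MuvB, B-MYB and FOXM1 complexes before mitosis. Those complexes act through a promoter element known as the CHR, and CCAAT boxes are a further element of mitotic promoters. Of the genes used for selection, Mki67 encodes the Ki-67 protein of the chromosome surface, Top2a a topoisomerase that untangles DNA, Cdk1 the mitotic kinase, Ccna2 the cyclin A2 that partners it, and Birc5 survivin of the chromosomal passenger complex.

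The T cell identity of the 437 cells was checked with genes that the rule did not use. At least 1 UMI of Cd3e, Cd3d or Cd3g was present in 435 of them. Cd8a and Cd8b1 chose the cells, and 380 held 2 or more UMIs of the pair. Markers of melanoma cells were nearly absent, with 6 of 7 measured genes at 0 and 1 UMI in total, and the single measured erythroid gene was at 0. Genes of CD4 helper cells other than Cd4 and Foxp3 came to 0.662 UMIs per 10000 in cycling and 0.844 in non-cycling cells, with none of the 5 measured genes at 0 and libraries between 0.178 and 1.20 in cycling cells. For γδ T cells the sum was 0.352 against 0.359, with 2 of 7 genes at 0 and libraries between 0.120 and 0.973. For NK cells it was 0.778 against 0.680, with 2 of 7 genes at 0 and libraries between 0.536 and 1.78, mainly from Eomes, which CD8 T cells also express. B cell genes came to 0.799 against 1.19, with none of 7 at 0 and libraries between 0.630 and 3.01. Myeloid genes came to 1.95 against 1.49, with 1 of 5 at 0, libraries between 1.24 and 2.03, and 265 of 371 UMIs from Cst3. Stromal genes came to 0.147 against 0.259, with 1 of 2 at 0 and the highest library at 0.198. The part of such cells in the differences below was not tested.

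Cycling cells were deep cells. Their median was 4103 UMIs against 1547.5 in non-cycling cells, with medians by library between 3389 and 5391.5 UMIs in cycling and between 833 and 2609 in non-cycling cells. The study kept cells with at most 2500 genes, and 35 of 437 cycling cells (8.01%) had over 2250 genes, against 12 of 3796 (0.316%). Ribosomal protein genes made up 29.2% of the UMIs of cycling and 36.1% of those of non-cycling cells. A barcode found in more than 1 library was carried by 8 cycling cells of 76 such barcodes in all, and any pair of libraries differed in summed counts by a chi-square of 2.32 or more per degree of freedom. UMIs of at least 2 different Trbv segments, which a pair of cells in 1 droplet can give, were seen in 184 cycling cells (42.1%) and in 22.4% of non-cycling cells. From non-cycling cells of the same library and depth 223.8 were expected. Deep non-cycling cells can be pairs too, so this number does not show how many cycling cells are pairs.

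The share of cycling cells among CD8-gated cells was 9.72% (8.87 to 10.6) in the pool and differed widely between libraries. It was 1.93% (12 of 622) in library 1, 0.451% (4 of 886) in library 2, 5.47% (22 of 402) in library 3, 9.43% (78 of 827) in library 4, 16.9% (147 of 869) in library 5 and 19.5% (174 of 891) in library 6. The intervals of libraries 5 and 6 overlapped, 14.5 to 19.6% and 17.0 to 22.3%, as did those of libraries 3 and 4 and those of libraries 1 and 2. After every cell was thinned to 1500 UMIs, which left out 1871 shallower CD8-gated cells including 16 cycling ones, the shares were 1.20%, 1.17%, 6.59%, 6.29%, 12.3% and 22.2% for libraries 1 to 6. Libraries 5 and 6 no longer overlapped, at 9.93 to 15.1% and 18.3 to 26.4%. Of the cells left out, however, 135 were of library 5 and 418 of library 6. Thinned to 1000 UMIs instead, libraries 5 and 6 overlapped again, at 6.06 to 10.3% and 9.26 to 14.5%.

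**Figure D1:**
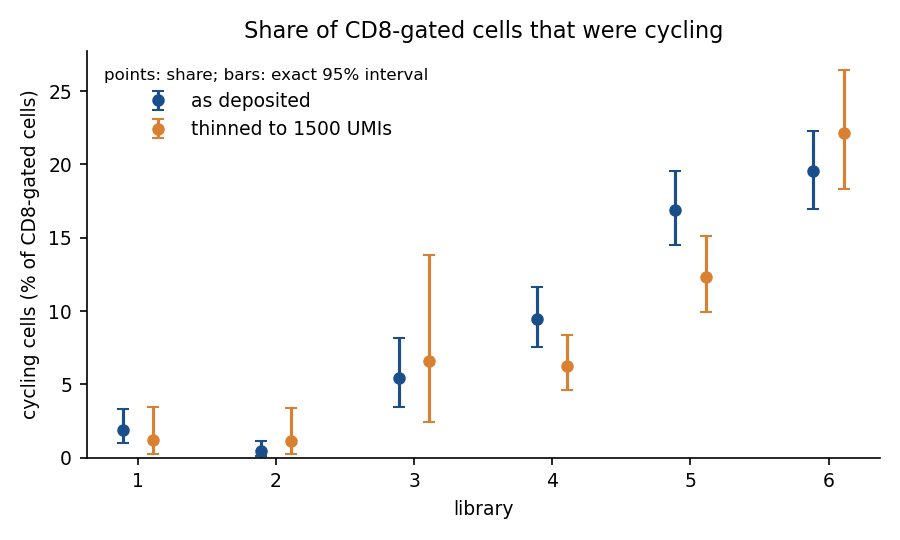
Share of CD8-gated cells that were cycling in each of the 6 libraries, in percent, as deposited and after thinning every cell to 1500 UMIs. Points are shares and bars are exact 95% intervals. Libraries 1 and 2 lay below 2% and library 6 was highest, at 19.5% and 22.2%.

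The 5 selecting genes are described without a comparison, since they chose the cells. Birc5 was seen in 345 of the 437 cells (78.9%), Top2a in 325 (74.4%), Mki67 in 321 (73.5%), Ccna2 in 242 (55.4%) and Cdk1 in 197 (45.1%). In libraries 1 to 6 the level of Mki67 in cycling cells was 3.55, 6.81, 2.41, 4.65, 5.03 and 3.57 UMIs per 10000. Of the 437 cells, 129 held exactly 2 of the genes, just inside the threshold, 122 held 3, 124 held 4 and 62 held all 5. Median depth rose along this series, from 3401 UMIs with 2 genes to 5558 UMIs with 5, and was 2636 UMIs in the 264 cells with 1 gene, just outside the threshold. Mki67 lies at chr7:135689784-135716361, Top2a at chr11:98992943-99024189, Cdk1 at chr10:69335146-69352938, Birc5 at chr11:117849251-117855743 and Ccna2 at chr3:36564865-36572150 in GRCm38 (GENCODE M21), all of them protein-coding genes.

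Genes outside the rule were compared between cycling and non-cycling CD8 cells to describe what else the cells shared. For each gene the UMIs of the cycling cells were divided by the number expected from its share of UMIs in non-cycling cells of the same library. A gene was called higher or lower when this ratio was at least 1.5 or at most 1/1.5, its interval left out 1, and every library with at least 10 UMIs observed plus expected showed the same direction, with at least 3 such libraries. Of 9876 genes with at least 20 UMIs, 857 (8.68%) were called higher and 389 (3.94%) lower. These shares are the background for the list counts of this comparison below. The cells were chosen by cell cycle genes, so calls of such genes describe the cells and are no independent evidence of cycling. When non-cycling cells were also matched by depth, 721 were called higher (7.30%) and 312 lower (3.16%), and these included 549 of the 857 and 162 of the 389. Matching by depth thus kept 64.1% of the higher and 41.6% of the lower calls, and each gene below that lost its call is named. Without libraries 1 and 2 the numbers were 855 and 411. Without library 4, 5 or 6 they were 276 and 82, 283 and 98, and 272 and 76, because few genes then had 3 libraries with enough UMIs.

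The 10 called genes with the highest ratios were Sapcd2, Plk1 (the mitotic polo kinase), Foxm1 (the transcription factor that drives G2/M genes), Ncapg (a condensin subunit), Esco2 (a cohesin acetyltransferase), Gm20628, Sgo2a (shugoshin, which protects cohesion at centromeres), Kif11 (the kinesin that separates spindle poles), Nuf2 (a kinetochore subunit) and E2f8 (a repressor of E2F targets). They had between 63 and 266 UMIs in the 437 cycling cells and between 1 and 18 in the 3796 non-cycling cells, so their ratios are imprecise. Kif11, with 233 UMIs against 10, was 77.0-fold higher (41.1 to 163). Its level in libraries 1 to 6 was 0.355, 0, 1.57, 1.31, 1.34 and 1.13 UMIs per 10000 in cycling cells and at most 0.025 in non-cycling cells. The populations did not overlap outside library 2, whose 4 cycling cells had no Kif11 UMI. Gm20628 is annotated antisense to the histone genes Hist2h3b and Hist2h2bb, and since strand-aware counting was not stated in the sources used here, its UMIs cannot be told apart from theirs.

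Genes of mitosis were the group that stood highest, but the 5 selecting genes are themselves G2/M genes. The rule thus favors this list, and its rank describes the selection as well as the cells. Of 65 G2/M phase genes tested, 59 were called higher and 0 lower, with a median log2 ratio of 4.45, against 0.00 over all genes tested. Ube2c, the ubiquitin-conjugating enzyme of the anaphase-promoting complex, was at 4.08, 8.27, 2.41, 5.33, 6.08 and 5.93 UMIs per 10000 in cycling cells of libraries 1 to 6. In non-cycling cells it was at 0.032, 0, 0.051, 0.198, 0.25 and 0.351, so that every cycling population lay above every non-cycling one. It was 22.1-fold higher (18.3 to 26.9). The kinase regulator Cks1b was 12.5-fold higher (10.4 to 15.0), the centromeric histone Cenpa 7.07-fold (6.22 to 8.04) and lamin B1, Lmnb1, 4.33-fold (3.89 to 4.82). Cdc25c, the phosphatase that activates Cdk1, had 44 UMIs in cycling and none in non-cycling cells, which makes it at least 38.5-fold higher against a floor of 3 UMIs over the non-cycling cells.

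DNA replication genes were higher as a group but by less. Of 47 S phase genes, 43 were called higher and 0 lower, with a median log2 ratio of 2.03. Rrm2, the inducible subunit of ribonucleotide reductase, was at 2.84, 2.92, 0.963, 3.27, 2.77 and 2.35 UMIs per 10000 in cycling cells of libraries 1 to 6 and at 0.032, 0.016, 0.127, 0.076, 0.175 and 0.150 in non-cycling cells. It was 19.4-fold higher (15.0 to 25.4), with no overlap between the populations. Clspn, which relays replication stress to Chk1, was 14.9-fold higher (9.72 to 23.7). The abundant genes had smaller ratios, 3.23 (2.94 to 3.55) for the dUTPase Dut and 3.2 (2.76 to 3.71) for the sliding clamp Pcna. Mcm6, a subunit of the replicative helicase, was called at 2.14 (1.81 to 2.52) and not when matched by depth, at 1.35.

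The promoters of the 4 called G2/M genes and the 2 called S phase genes with the highest ratios that had an entry are shown because CHR, CCAAT and E2F elements are the sites through which these gene groups are known to be timed. They are from RefSeq on GRCm38.p6 and run from 250 bases before to 50 bases after the transcript start, 5′ to 3′ on the gene's strand. Capitals mark TTTGAA (CHR), CCAAT and the E2F forms TTTCCCGC, TTTGGCGC, TTTCGCGC and TTTGCCGC, searched on both strands, and where elements overlap a single run of capitals results. All 6 genes lie on the plus strand.
Plk1, G2/M phase, chr7:122159185-122159484: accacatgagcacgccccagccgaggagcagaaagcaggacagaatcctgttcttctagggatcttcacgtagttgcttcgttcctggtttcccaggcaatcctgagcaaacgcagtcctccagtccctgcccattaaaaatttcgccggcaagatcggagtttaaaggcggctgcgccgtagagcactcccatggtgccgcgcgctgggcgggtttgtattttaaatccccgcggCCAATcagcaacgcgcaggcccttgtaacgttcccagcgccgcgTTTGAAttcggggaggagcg
Ncapg, G2/M phase, chr5:45669675-45669974: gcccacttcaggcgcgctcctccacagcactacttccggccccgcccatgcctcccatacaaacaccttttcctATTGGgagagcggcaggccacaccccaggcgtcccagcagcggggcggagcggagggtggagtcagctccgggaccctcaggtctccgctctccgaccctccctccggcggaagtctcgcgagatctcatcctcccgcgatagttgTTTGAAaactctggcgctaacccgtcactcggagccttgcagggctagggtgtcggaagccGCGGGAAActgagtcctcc
Sgo2a, G2/M phase, chr1:57995724-57996023: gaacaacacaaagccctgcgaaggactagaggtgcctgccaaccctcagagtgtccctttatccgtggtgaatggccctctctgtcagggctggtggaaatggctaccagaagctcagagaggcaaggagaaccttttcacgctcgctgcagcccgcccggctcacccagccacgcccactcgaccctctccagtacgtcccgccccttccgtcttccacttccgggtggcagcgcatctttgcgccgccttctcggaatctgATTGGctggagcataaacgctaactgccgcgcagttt
Kif11, G2/M phase, chr19:37376132-37376431: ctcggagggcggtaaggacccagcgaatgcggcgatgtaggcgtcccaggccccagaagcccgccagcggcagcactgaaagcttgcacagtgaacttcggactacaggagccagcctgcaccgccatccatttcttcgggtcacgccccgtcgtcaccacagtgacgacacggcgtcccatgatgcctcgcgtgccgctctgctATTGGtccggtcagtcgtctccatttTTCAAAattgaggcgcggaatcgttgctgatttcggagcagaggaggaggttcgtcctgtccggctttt
Rrm2, S phase, chr12:24708004-24708303: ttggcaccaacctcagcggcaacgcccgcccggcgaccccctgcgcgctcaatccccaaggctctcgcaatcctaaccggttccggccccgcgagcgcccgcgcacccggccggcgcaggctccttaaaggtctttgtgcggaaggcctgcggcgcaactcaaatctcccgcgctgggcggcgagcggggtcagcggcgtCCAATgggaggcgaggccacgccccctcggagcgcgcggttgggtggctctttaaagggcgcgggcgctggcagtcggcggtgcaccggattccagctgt
Clspn, S phase, chr4:126556730-126557029: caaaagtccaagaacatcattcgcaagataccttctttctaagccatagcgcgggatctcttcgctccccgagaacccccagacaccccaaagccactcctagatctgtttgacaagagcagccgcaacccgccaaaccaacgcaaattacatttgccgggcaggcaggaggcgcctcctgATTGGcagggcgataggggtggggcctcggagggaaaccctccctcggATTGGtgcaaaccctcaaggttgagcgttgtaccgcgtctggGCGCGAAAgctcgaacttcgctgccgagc
A CHR lay in 3 of the 4 G2/M promoters and in neither S phase promoter, and a CCAAT box in all 6. Over one promoter a gene, the CHR letters were found in 38 of the 54 G2/M genes with an entry (70.4%), against 18.1% of all 27025 promoters of this length. CCAAT was found in 68.5% of the G2/M promoters and 37.9% of all promoters, and an E2F form in 9.26% and 2.32%. In 19 promoters of tubulin and chromatin genes CHR was found in 31.6%, and in 17 promoters of cytotoxic genes in 23.5%. Only 36 of the 47 S phase genes, 28 of the 36 interferon response genes and 7777 of the 9876 genes tested had an entry. These lie under the share of members that was set for such a check, so the check is void for these sets. Whether CHR marks genes of division was therefore not tested against them. A match of letters is a description of the window and not a measured site.

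Of 33 histone genes tested, replication-independent variants included, 23 were called higher and 0 lower, with a median log2 ratio of 2.86. Transcripts of the replication-dependent histones are made in S phase. Hist1h2ae was at 12.8, 17.5, 18.4, 23.3, 29.0 and 20.1 UMIs per 10000 in cycling cells of libraries 1 to 6. In non-cycling cells it was between 0.180 and 0.732, without overlap, and the ratio was 45.6 (40.3 to 51.8). Hist1h2ap had a ratio of 48.1 (37.9 to 62.0). These genes are near-identical copies, so the split of reads between them is uncertain. The replication-independent variants differed among themselves: H2afz was 3.85-fold (3.68 to 4.02) and H2afv 3.90-fold higher (3.6 to 4.23), while H3f3a and H3f3b, at 1.24 each, and H2afy, at 1.06, were not called.

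Tubulins and chromatin proteins of dividing cells made up the most abundant of these groups. Of 21 genes, 19 were called higher and 0 lower, with a median log2 ratio of 1.85. Stmn1, the microtubule-destabilizing protein stathmin, was at 4.26, 8.27, 5.90, 6.88, 6.93 and 5.17 UMIs per 10000 in cycling cells and at 0.180, 0.086, 0.457, 0.188, 0.4 and 0.592 in non-cycling cells of libraries 1 to 6. The populations did not overlap, and the ratio was 14.9 (12.9 to 17.4). Tuba1b was 10.2-fold higher (9.44 to 11), Tubb5 6.55-fold (6.16 to 6.97), and the DNA-bending protein Hmgb2, found in 99.8% of cycling and 54.1% of non-cycling cells, 5.03-fold (4.86 to 5.21). Together with the S phase, G2/M and histone lists and the 5 selecting genes, these genes took 4.40% of the UMIs of cycling and 1.06% of those of non-cycling cells.

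**Figure D2:**
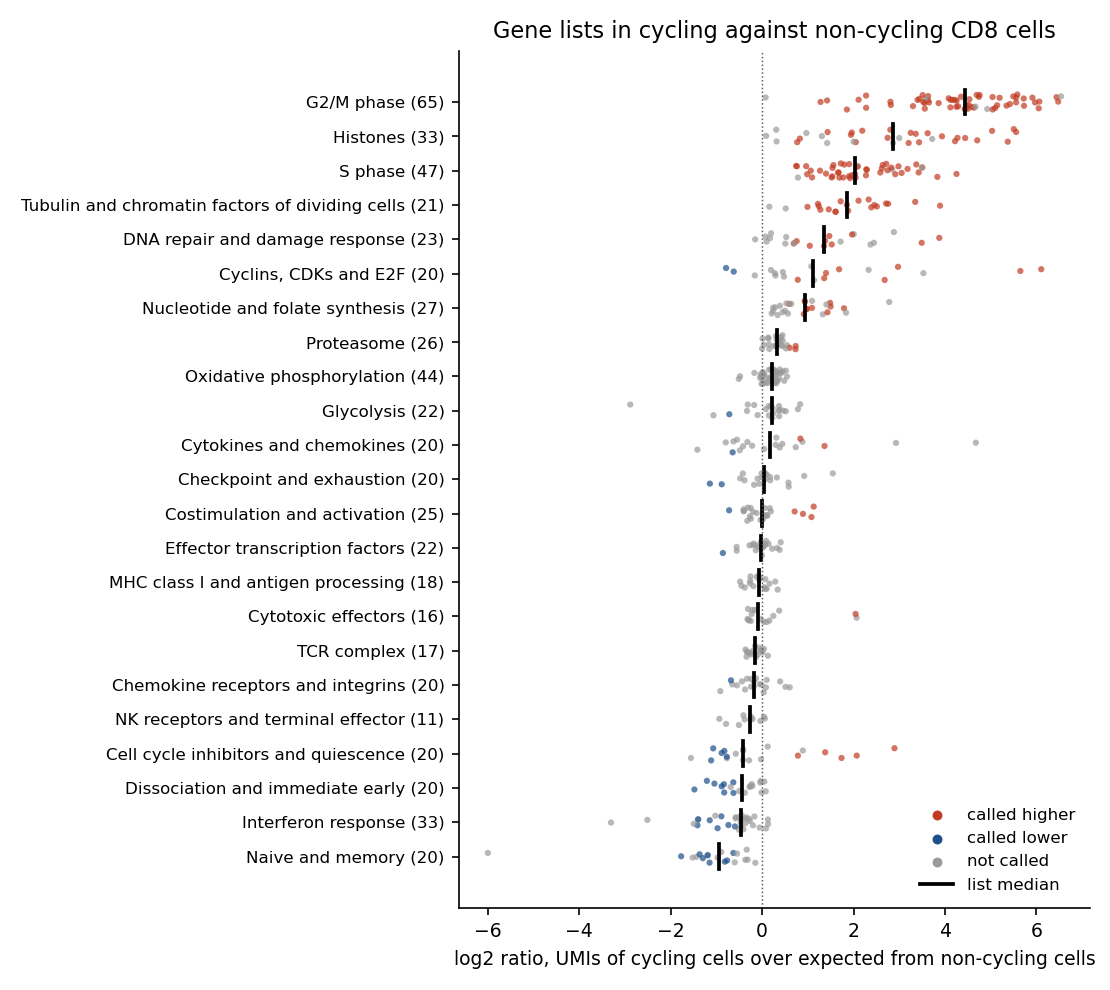
Log2 ratio of UMIs in cycling CD8 cells over the number expected from non-cycling CD8 cells, for each tested gene of 23 lists, with the number tested after each name. Each point is a gene, red if called higher, blue if called lower and grey if not called, and the black bar is the list median, which ran from 4.45 for G2/M phase to −0.93 for naive and memory genes.

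Regulators of the cycle moved in both directions. Among 20 cyclins, CDKs and E2F factors, 8 were called higher and 2 lower. Mybl2, the B-MYB of the mitotic gene complex, was 8.38-fold higher (4.59 to 16.3), and Cdk4, the G1 kinase, 1.72-fold (1.49 to 1.97), a call lost at matched depth with 1.32. Ccnd2, the cyclin D2 of G1, was lower at 0.578 (0.466 to 0.710) in all 5 libraries read. Among 20 inhibitors and quiescence genes, 5 were called higher and 5 lower. Those higher included the CDK4/6 inhibitors Cdkn2c, at 7.75 (5.11 to 12), and Cdkn2a, at 3.38 (2.36 to 4.89, 1.8 and not called at matched depth), and the pocket protein Rbl1, at 4.27 (3.18 to 5.73). Those lower included the quiescence factors Klf2, at 0.476 (0.424 to 0.532), Btg1, at 0.541 (0.509 to 0.575), and Foxp1, at 0.585 (0.479 to 0.708), none of which was called at matched depth, at 0.803, 0.676 and 0.722.

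Of 23 DNA repair genes, 10 were called higher and 0 lower. Brca1 was 16.9-fold higher (8.91 to 34.9), its partner Bard1 12.5-fold (6.43 to 26.5) and the cohesin subunit Rad21 3.92-fold (3.41 to 4.5), whereas Trp53, at 1.07 (0.907 to 1.26), and Gadd45b, at 0.900, were not called. Of 27 genes of nucleotide and folate synthesis, 11 were called higher and 0 lower, with a median log2 ratio of 0.93. Dck, the deoxycytidine salvage kinase, was 3.50-fold (2.70 to 4.53) and Shmt2, the mitochondrial serine hydroxymethyltransferase, 2.83-fold higher (2.21 to 3.6). Mthfd2, of the same mitochondrial folate path, was called at 2.84 (2.36 to 3.41) and not at matched depth, at 1.73.

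Energy metabolism differed little. None of 44 oxidative phosphorylation genes was called in either direction, with a median log2 ratio of 0.22. None of 22 glycolysis genes was called higher and 1, Pfkfb3, was lower, at 0.603 (0.364 to 0.957). Gapdh had a ratio of 1.29 (1.25 to 1.34) and was above the expected number in all 6 libraries, below the fold used for a call, and its ratio was 1.09 at matched depth. Of 26 proteasome genes 3 were called higher and 0 lower, against 8.68% and 3.94% of all genes tested. Psmc3 was among those called higher, at 1.66 (1.47 to 1.88).

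Effector transcripts were measured next, since cytotoxicity is the function for which these cells are known. Of 16 cytotoxic genes tested, 1 was called higher and 0 lower, with a median log2 ratio of −0.09 (0.10 at matched depth). Gzmb, granzyme B, was at 4.8, 0, 6.26, 11.9, 18.3 and 14.2 UMIs per 10000 in cycling cells and at 2.21, 0.086, 2.69, 9.24, 15.7 and 9.81 in non-cycling cells of libraries 1 to 6. Its ratio was 1.30 (1.24 to 1.36), above the expected number in all 5 libraries read and below the fold used for a call. Levels varied more between libraries than between the populations of a library. Gzma was at 0.901 (0.871 to 0.932) and Nkg7 at 0.864 (0.832 to 0.898), neither called. Gzmc was the gene called higher, at 4.15 (3.38 to 5.10), a call lost at matched depth with 3.0, and it was detected in 12.6% of cycling and 1.5% of non-cycling cells.

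**Figure D3:**
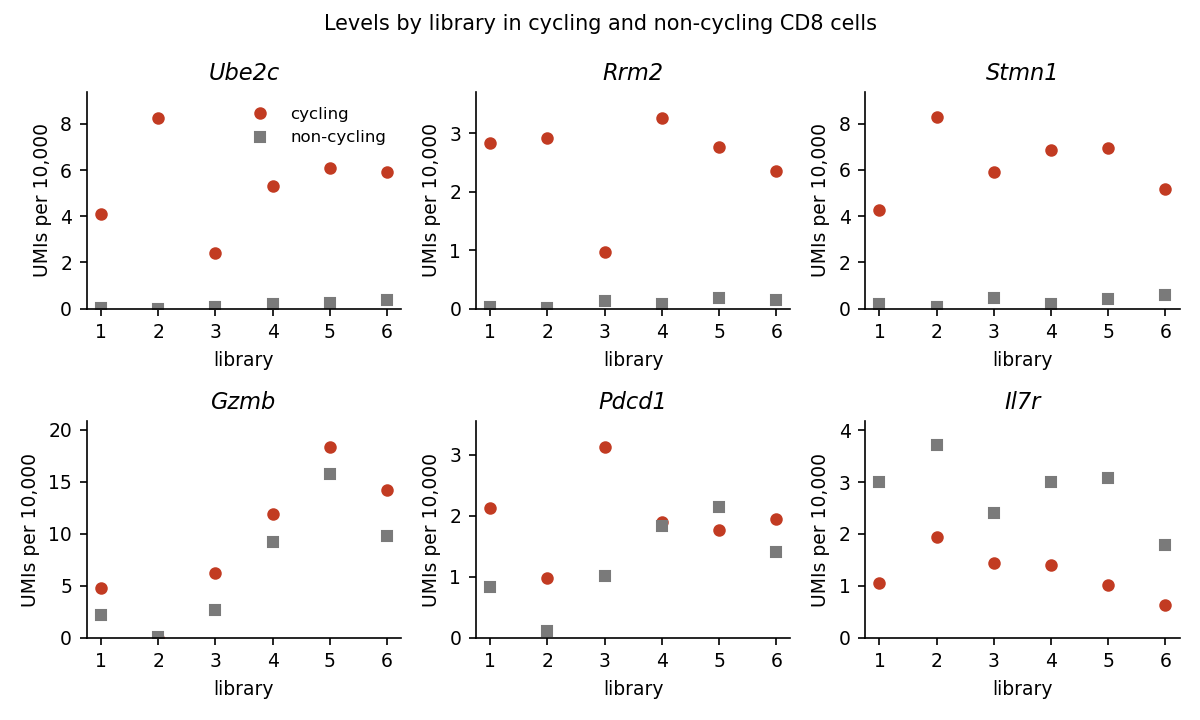
UMIs per 10000 in cycling (red circles) and non-cycling (grey squares) CD8 cells of each of the 6 libraries, for 6 genes. Ube2c, Rrm2 and Stmn1 separated the populations in every library, Il7r was lower in cycling cells of every library, and the ranges of Gzmb and Pdcd1 overlapped between the populations.

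Single chemokine genes differed in both directions. Ccl5, a chemokine made by memory and effector CD8 T cells, was at 65.7, 9.73, 144, 51.4, 43.2 and 43.7 UMIs per 10000 in cycling cells and at 135, 11.6, 132, 125, 124 and 151 in non-cycling cells. Its ratio was 0.375 (0.367 to 0.383), but it was not called, because library 3 stood above its expected number. When matched by depth it was called lower, at 0.596. Ccl4 was called lower at 0.640 (0.602 to 0.680), and not at matched depth, at 0.990. Ccl1 was called higher, at 1.79 (1.38 to 2.32), and kept the call at matched depth. Ifng, at 1.31 (1.22 to 1.39), was not called and was called higher at matched depth, at 1.53, while the growth factor Csf2 was called higher at 2.59 (2.01 to 3.35) and not at matched depth, at 1.65. In all, 2 of 20 cytokine genes were called higher and 1 lower, near the shares over all genes tested, 8.68% and 3.94%. The list as a whole thus did not stand out.

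Of 20 checkpoint and exhaustion genes, 0 were called higher and 2 lower, against 8.68% and 3.94% of all genes tested. Pdcd1, which encodes PD-1, was at 2.13, 0.973, 3.13, 1.89, 1.76 and 1.95 UMIs per 10000 in cycling cells and at 0.824, 0.110, 1.01, 1.83, 2.14 and 1.40 in non-cycling cells, with a ratio of 1.13 (0.996 to 1.27). It was above its expected number in 4 of 5 libraries read and was not called. The genes called lower were Vsir, which encodes the checkpoint receptor VISTA, at 0.540 (0.410 to 0.701), and Cd38, an ectoenzyme of NAD, at 0.447 (0.269 to 0.708). Among 25 costimulation and activation genes, 4 were called higher and 1 lower. Slc7a5, a large amino acid transporter, was higher at 2.20 (1.75 to 2.74), and Il2ra, the high-affinity chain of the IL-2 receptor, at 1.86 (1.58 to 2.19), a call lost at matched depth with 1.31. Effector transcription factors were called in 1 of 22 cases, Maf, lower at 0.549 (0.384 to 0.766), and none of 11 NK receptor genes was called.

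Naive and memory genes were lower as a group, with 8 of 20 called lower, 0 higher and a median log2 ratio of −0.93. Il7r, the IL-7 receptor that sustains resting T cells, was at 1.07, 1.95, 1.44, 1.40, 1.02 and 0.640 UMIs per 10000 in cycling and at 3.0, 3.71, 2.41, 3.0, 3.08 and 1.79 in non-cycling cells of libraries 1 to 6. It was lower in every library, at 0.387 (0.332 to 0.449), although the highest cycling value, in library 2, exceeded the lowest non-cycling one, in library 6. Tcf7, the factor TCF-1 of naive and stem-like T cells, was at 0.436 (0.323 to 0.576) and kept its call at matched depth, at 0.501. Lef1, at 0.646 (0.539 to 0.768), lost it, at 0.774, and Ccr7, at 0.791, was not called. At matched depth 5 of the 20 genes were called lower.

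Interferon response genes were called lower for 7 of 33, with 0 higher and a median log2 ratio of −0.47, and at matched depth for 4. Irf7, the inducer of type I interferon, was at 0.450 (0.342 to 0.583) and Ifi213 at 0.373 (0.287 to 0.478), and both were also called at matched depth. The immediate early and heat shock genes, which tissue dissociation is known to induce, were called lower for 8 of 20, and at matched depth for 4. Jun was at 4.08, 1.46, 3.01, 2.35, 1.34 and 1.47 UMIs per 10000 in cycling and at 12.2, 20.1, 10.0, 6.14, 3.26 and 4.10 in non-cycling cells, below in every library, with a ratio of 0.358 (0.320 to 0.399). Hspa1a had a ratio of 0.433 (0.392 to 0.477). T cell receptor complex genes and MHC class I genes had 0 of 17 and 0 of 18 called in either direction.

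The 10 called genes with the lowest ratios were Tcp11l2, Gm30054, Scml4, Pik3ip1, Kdm5b, N4bp2l1, Tmem191c, Cpm, Nccrp1 and Pcmtd2. Pik3ip1 restrains PI3K signaling and was at 0.284 (0.140 to 0.518), and Kdm5b, a demethylase of histone H3 lysine 4, at 0.285 (0.149 to 0.499). Tcp11l2 was lowest, at 0.201 (0.118 to 0.322). Their UMIs in cycling cells ran from 10 to 21, and Tmem191c, Cpm, Nccrp1 and Pcmtd2 lost the call at matched depth, whereas the other 6 kept it. Gm30054 is annotated antisense to Fam149b.

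Cells were next ordered by how many of the 5 selecting genes they held. Relative to cells with none in the same library, the summed level of the G2/M list was 2.45-fold in cells with 1 gene, and 5.42-, 8.34-, 10.4- and 12.2-fold in those with 2, 3, 4 and 5. The selecting genes are themselves G2/M genes, and median depth rose along the same order. After thinning to 1500 UMIs the G2/M list was at 4.25, 7.33, 10.9 and 10.8 for 1 to 4 genes. The parts of selection and depth in this order were not tested. The S phase list showed no such rise beyond 2 genes, at 2.12, 3.61, 3.89, 3.55 and 4.05. Histones rose from 1.27 to 3.37, and after thinning to 1500 UMIs were at 1.89, 2.78, 3.56 and 3.03 for 1 to 4 genes. The cytotoxic list stayed between 0.894 and 1.01, and the interferon list ran from 0.881 to 0.582. After thinning to 1500 UMIs the interferon list no longer followed this order, with 0.866, 0.730, 1.01 and 0.921 for 1 to 4 genes.

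**Figure D4:**
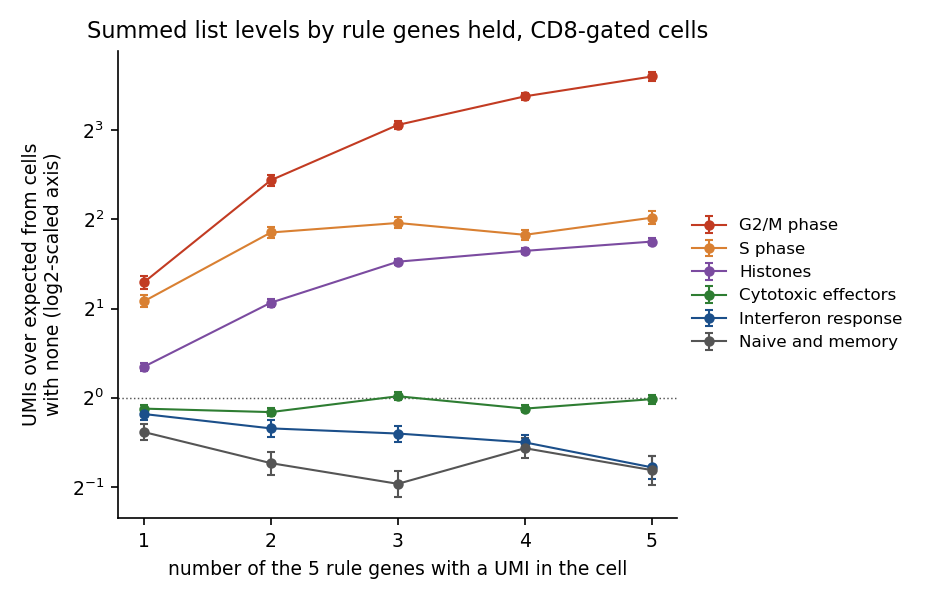
Summed UMIs of 6 gene lists in CD8-gated cells holding 1 to 5 of the selecting genes, over the number expected from cells with none in the same library, on a log2-scaled axis. Bars are exact 95% intervals that treat the expected number as known. The G2/M list rose from 2.45 to 12.2, and the cytotoxic list stayed near 1.

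Cycling cells differed in the phase their transcripts pointed to. Across the 437 cells the S phase and G2/M levels had a Spearman correlation of −0.22, given as a description across cells of shared libraries. It was −0.21, −0.18 and −0.30 within libraries 4, 5 and 6. Within libraries 1 and 3, with 12 and 22 cycling cells, it was −0.035 and 0.055. UMIs of the S phase list exceeded those of the G2/M list in 136 cells (31.1%). Cells were split by the S phase share of the UMIs of both lists, into 149 cells at 50% or more, 142 between and 146 at 26.8% or less. Among genes outside both lists, nucleotide and folate genes were at 34.7 UMIs per 10000 in cells with the highest S share, 29.3 in the middle and 23.3 in those with the lowest. Histones were highest in the middle, at 143, with 114 and 123 on the S and G2/M sides. Cytotoxic genes differed less, at 80.7, 86.0 and 92.3 in the same order from high to low S share. Each group held cells of all 6 libraries.

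**Figure D5:**
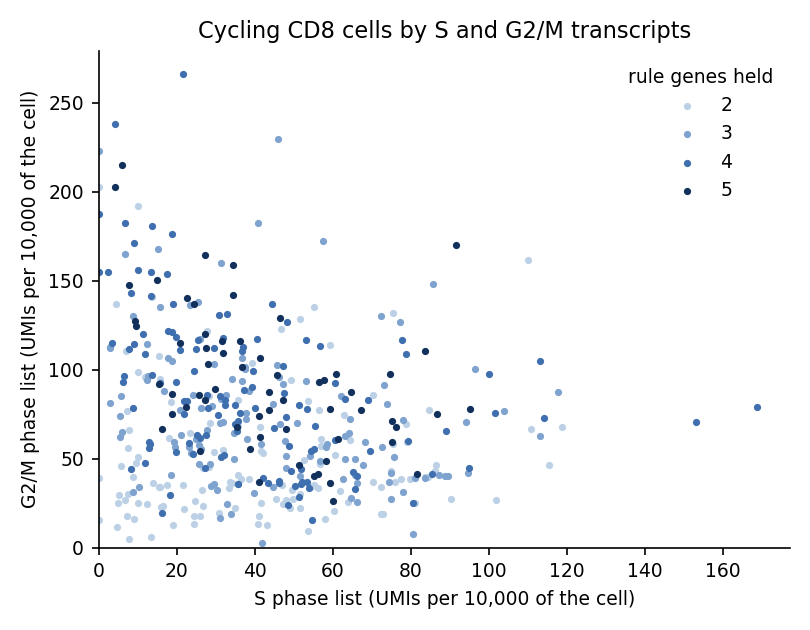
Each of the 437 cycling CD8 cells by its S phase list (x axis) and G2/M list (y axis) in UMIs per 10000 of the cell, shaded by the number of selecting genes held. The cloud is wide, with a Spearman correlation of −0.22, and cells high for both lists are present.

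T cell receptor β segments were read in cells with UMIs of exactly 1 Trbv gene. Trbv19 was the most frequent in the 213 such cycling cells, with 36 (16.9%), where 23.2 were expected from non-cycling cells of the same libraries, a ratio of 1.55 (1.09 to 2.15). It was carried by 5 of 5 such cycling cells in library 3, where 33.6% of non-cycling cells also carried it, and by 10.2%, 13.5% and 20.5% in libraries 4, 5 and 6 against 5.83%, 12.7% and 11.4%. The next segment, Trbv12-1, had 21 cells against 16.9 expected (1.24, 0.768 to 1.90). Trbv5 was the other segment whose interval left out 1, with 8 cells against 1.75 expected, a ratio of 4.57 (1.97 to 9.01), from libraries 5 and 6. Trbv19 and Trbv5 were singled out after their values were seen, among all segments.

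Cycling CD4+ Tconv cells were then set beside cycling CD8 cells. They were selected by the same 5 genes among cells with Cd4 and no Cd8a, Cd8b1 or Foxp3 UMI. They were 102 of 1205 such cells (8.46%, 6.95 to 10.2), and their share by library was 2.07, 1.32, 0.813, 8.52, 18.8 and 7.98%. Among CD4+ Tconv cells, cycling against non-cycling, 170 of 7468 genes (2.28%) were called higher and 147 (1.97%) lower. Only 8 of 58 G2/M and 3 of 38 S phase genes were called higher, although their median log2 ratios were 4.29 and 2.10. A call needs 3 libraries with enough UMIs, and libraries 1, 2 and 3 held 3, 2 and 1 cycling CD4 cells. The numbers of calls are therefore not comparable with those of CD8 cells. In library 5 the CD4 share lay beside the CD8 share of 16.9%, whereas in library 6 it stood at 7.98% (4.53 to 12.8) against 19.5% (17.0 to 22.3). After thinning to 1500 UMIs the library 6 shares were 12.3% (5.08 to 23.7) and 22.2% (18.3 to 26.4), with overlapping intervals. Against these cells, 347 of 7380 genes (4.70%) were called higher in cycling CD8 cells and 227 (3.08%) lower. Of 66 G2/M genes 0 were called, with a median log2 ratio of −0.07 (−0.12 to 0.06). Both populations were chosen by the same 5 G2/M genes, so likeness in this list was built into the selection. The few cycling CD4 cells of libraries 1, 2 and 3 limit these calls too. Of 47 S phase genes 5 were called higher, with a median of 0.28 (0.17 to 0.48), against 0.06 over all genes tested.

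Lineage genes separated the cycling populations. Of 16 cytotoxic genes, 7 were called higher in cycling CD8 cells and 0 lower, with Gzma at 11.6-fold and Gzmb at 5.17-fold. Between non-cycling CD8 and non-cycling CD4+ Tconv cells, 7 of 16 were also called higher and 1 lower. The median log2 ratio was 1.15 there and 1.25 in cycling cells. Of NK receptor genes, 5 of 8 were called higher in cycling and 8 of 11 in non-cycling CD8 cells. The difference in these lists was thus not particular to cycling cells. Ccl5 was 32.7-fold higher (26.3 to 41.3) and Klrd1, the CD94 receptor, 21.1-fold (12.7 to 37.8). Lower in cycling CD8 cells were Il13, at 0.0274 (0.0128 to 0.0522), Penk, at 0.0806 (0.0552 to 0.115), Il4, at 0.101 (0.0551 to 0.177), and Ccr8, at 0.153 (0.0933 to 0.246). Il4 and Il13 are cytokines of the Th2 type. Of the CD4 helper genes, which include these 2, 4 of 4 were called lower in cycling CD8 cells. Between non-cycling CD8 and CD4+ Tconv cells 5 of 5 were, so this difference was not particular to cycling cells either. For Ccl5, Klrd1, Penk and Ccr8 no ratio between non-cycling cells is given here, and none is called particular to cycling cells. Il13, Penk, Il4 and Ccr8 were singled out after their values were seen. Of the regulators, Ccnd2 was called lower in cycling CD8 cells at 0.592. Foxm1 was called higher at 2.12 (1.05 to 4.83), with 68 UMIs against 9 in cycling CD4+ Tconv cells. In library 5 it had 19 UMIs against 17.4 expected, so its ratio is imprecise.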

How the data were processed

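The authors sequenced RNA of single cells with the 10x Chromium 5' v2 kit, from live TCRβ+ cells after pan T cell enrichment. The deposited table holds UMI counts per gene and cell for 14597 genes and 12818 cells, in whole numbers. Per the study's methods, reads were mapped to mm10, libraries were merged with Cell Ranger 5.0.0, and cells with 200 to 2500 genes and under 5% mitochondrial transcripts were kept in Seurat 3.2.2. The submitters' processing notes name mm9 instead, and no coordinate was taken from the table. No doublet caller was run, and UMIs of several Trbv segments were counted in its place. The table has 0 unused per-sample columns.

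Cells were gated on the deposited counts. Ratios compare the UMIs of cycling cells with those expected from non-cycling cells of the same library, with exact binomial intervals, and log2 ratios had 0.5 added to both numbers. Intervals for Trbv segments and for list levels by selecting genes held treat the expected number as known. Genes needed 20 UMIs over both populations. Matching by depth used quartiles of UMIs per cell. Python 3.11.15, numpy 2.4.6, scipy 1.17.1, pandas 2.3.3 and matplotlib 3.10.9 were used, and the scripts were tested on simulated data. The count tests for replicated groups were not run, since no library could be tied to a sample. The cells, gene lists and comparisons were chosen with earlier results of these data known. Named genes were the selecting genes, Cd8a and Cd8b1, the 10 highest and 10 lowest called genes with at least 50 UMIs, and from each list up to 6 genes with the most UMIs and up to 3 called genes farthest from 1. A background share in naive-like cells and a comparison of activated cells rest on an item that is not reported here and were left out. Intervals and floors cover counting error only.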

Additional observations from a re-analysis of the deposited data

Results flagged for a closer look

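Cycling cells were also present outside the CD8 and CD4 gates, in cells that none of the comparisons used. Of 6838 cells in which Cd8a, Cd8b1, Cd4 and Foxp3 were all at 0, 167 (2.44%, 2.09 to 2.84) held at least 2 of the 5 selecting genes, at a median of 3228 UMIs. Of 163 cells with UMIs of both Cd4 and Cd8a or Cd8b1, 33 (20.2%, 14.4 to 27.2) did so. Whether these cells are CD8 T cells with missed transcripts, other T cells or pairs of cells was not tested.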

How the results depend on the processing

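Cycling cells made up 9.72% of CD8-gated cells. This share became 5.34% after thinning to 1000 UMIs, 15.6% with at least 1 selecting gene, 6.85% with at least 3, 12.2% with at least 2 CD8 UMIs, 7.51% with at most 1 Trbv segment, 14.1% without libraries 1 and 2, and 7.29 to 12% when a library was left out. Genes called higher numbered 857 and ranged from 272 to 864 when a library was left out, and genes called lower numbered 389 and ranged from 76 to 404. A 2-fold threshold gave 447 and 95. The interval of the TCR complex median (−0.15) no longer left out 0 when matched by depth (−0.0353), not matched by library (−0.0331), scaled outside cell cycle genes (−0.10) or with at most 1 Trbv segment (−0.16). That of the NK receptor median (−0.25) left out 0 without libraries 1 and 2 (−0.29), with at most 1 Trbv segment (−0.45) and without library 1, with −0.33 to −0.21 over the libraries left out. That of chemokine receptors and integrins (−0.18) did so without library 3 or 6, with −0.26 to −0.16 over the libraries left out. The cause was not tested. Of 214 named genes, 134 kept both call and size when matched by depth, 25 lost the call, 6 gained one and 49 moved in value. No list median or named gene reversed a call. The Mantel-Haenszel ratio, leaving out libraries 1 and 2 together, and the limit of 1 Trbv segment were chosen after seeing the data. A planned comparison restricted to activated cells on both sides is not reported. No paired analysis was possible because the libraries carry no sample or replicate label, and cycling cells were compared with non-cycling cells within each library throughout. Cell number limits libraries 1 and 2, with 12 and 4 cycling cells.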
